A study of Mus musculus with 8 samples.

Results

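The amino acid response genes described here are 40 of the 22432 listed in the expression table: the transcription factor ATF4 and its partners, enzymes that make amino acids and one-carbon units, amino acid transporters, and cytosolic aminoacyl-tRNA synthetases. They were taken from a list of gene symbols of the ATF4 pathway that was drawn up with earlier results of these data known, and no measured value enters the rule itself. By role, 9 are regulators and other genes of the integrated stress response, called regulators below although not all of them regulate it. The rest are 7 serine, glycine and one-carbon enzymes, 4 enzymes of asparagine, proline and alanine synthesis, 8 amino acid transporters and 12 synthetases. All 40 have values in all 8 libraries, and all 40 passed the minimum level set for testing.

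When amino acids run short, or when proteins misfold, stress kinases phosphorylate the translation initiation factor eIF2, general protein synthesis slows, and the mRNA of ATF4 is translated more. ATF4 then pairs with a C/EBP protein and binds C/EBP-ATF response elements beside genes for amino acid synthesis, amino acid import and tRNA charging, so Atf4 mRNA alone does not report how much ATF4 protein a cell holds. Activated T cells take up more amino acids and make more serine-derived one-carbon units as they grow and divide.

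RNA was sequenced from mouse regulatory T cells (Treg), the Foxp3-expressing CD4 T cells that restrain immune responses, on a C57Bl/6 background. The 4 genotypes are WT, RelB-KO, Nfkb2-KO and DKO, with 2 libraries each. All 4 carry Foxp3-CRE-YFP, a Cre recombinase and yellow fluorescent protein expressed from Foxp3, the WT controls included. RelB-KO cells have RelB F/F, Nfkb2-KO cells have nfkb2 F/F and DKO cells have both, so deletion is limited to cells in which Foxp3 has been expressed. RelB and Nfkb2 encode the partners of the alternative NF-kB dimer, and Nfkb2 makes the precursor p100 that is cut to p52. The cells came from spleen and lymph nodes combined and were cultured for 16 h on plate-bound anti-CD3 (5 µg/ml) with anti-CD28 (1 µg/ml), an agonist antibody to the costimulatory receptor OX40 (2 µg/ml) and IL-2 (10 ng/ml). The labels give no age and do not say whether libraries of a genotype came from separate mice, so p-values measure only the spread between these libraries.

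Each value is a log2 expression level as deposited, so a difference of 1 is a fold of 2. Levels are compared between libraries of 1 gene and not between genes, because the values are not per length on a scale that could be checked. The un-logged values sum to between 18200000 and 19700000 per library, and the read depth of each library is unknown. Relb stood at 10.49 to 10.84 in WT and Nfkb2-KO and at 6.35 to 7.08 in RelB-KO and DKO, and Nfkb2 at 12.31 to 12.80 in WT and RelB-KO and at 8.75 to 9.85 in Nfkb2-KO and DKO, as the labels state. The highest knockout values of both genes were in DKO replicate 2, 7.08 and 9.85, against 6.74 and 9.29 in DKO replicate 1. RelB-KO had Relb at 6.35 and 6.52, and Nfkb2-KO had Nfkb2 at 8.75 and 8.79. WT replicate 1 stands apart in sex-linked genes, with Xist at 8.17 against 14.61 to 15.13 in the other 7 libraries and Ddx3y at 11.60 against 4.25 to 4.35. Foxp3 was 13.95 to 14.28 throughout, the B cell marker Ms4a1 was at most -0.44 and Pax5 was listed at 0 in all libraries, but Cd79a reached 3.75 and Cd79b was 7.09 to 7.72. Of the myeloid and dendritic markers, Itgax was at most -0.25, but Lyz2 was 4.72 to 5.79 and Cd68 was 6.80 to 7.51. Of the CD8 T and NK markers, Ncr1 was at most -2.08 and Cd8a at most 0.92, but Cd8b1 was 7.57 to 7.87 and Eomes 5.70 to 6.49. The larger division among the libraries was by replicate number: principal component 1 (67.8% of variance) had the 4 libraries of replicate 1 at one end and the 4 of replicate 2 at the other. Tests were therefore read in the fit across all genes and again with the replicate number as a block.

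The response element that ATF4 and C/EBP proteins share has the core TGATGNAA, which reads TTNCATCA on the other strand. RefSeq promoters of the GRCm38.p6 build, from 250 bases before to 50 after each start, could be matched to 32 of the 40 members and not to Eif4ebp1, Slc7a5, Slc1a5, Slc38a1, Wars, Nars, Cars and Lars. The core was found on either strand in 11 of those 32 (34.4%): Asns, Trib3, Chac1, Pycr1, Slc7a11, Slc1a4, Aars, Gars, Iars, Tars and Yars. Among all 27025 genes with such a window, 1219 (4.51%) held it. A match is a description of letters and not a measured binding site. None of the 7 serine, glycine and one-carbon enzymes had a match in its window. The windows of 30 bases below show 1 match in members of each of the other 4 roles, in the direction of the gene, with the core in capitals.
Asns, chr6:7693214-7693243, minus strand: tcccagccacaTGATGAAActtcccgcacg
Pycr1, chr11:120643833-120643862, minus strand: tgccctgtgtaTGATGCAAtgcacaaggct
Chac1, chr2:119351038-119351067, plus strand: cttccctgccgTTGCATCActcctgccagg
Trib3, chr2:152344028-152344057, minus strand: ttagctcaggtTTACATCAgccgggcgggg
Slc1a4, chr11:20332699-20332728, minus strand: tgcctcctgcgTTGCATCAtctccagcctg
Gars, chr6:55037960-55037989, plus strand: tggctgcgctaTTTCATCAtgcaccgggcg
Yars, chr4:129189895-129189924, plus strand: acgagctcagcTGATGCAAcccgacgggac
In Asns, Pycr1, Chac1, Slc1a4 and Gars the core begins before the RefSeq start, and in Trib3 and Yars it begins after it. The GENCODE annotation, used below for gene positions, starts Asns at 7693254 and Trib3 at 152344032, both on the minus strand. By those starts the Asns core lies after the start and the Trib3 core before it. Asns, the textbook ATF4 target, is shown with the 250 bases before its RefSeq start at chr6:7693210-7693459 (minus strand), and the same core lies close to that start.
Asns promoter: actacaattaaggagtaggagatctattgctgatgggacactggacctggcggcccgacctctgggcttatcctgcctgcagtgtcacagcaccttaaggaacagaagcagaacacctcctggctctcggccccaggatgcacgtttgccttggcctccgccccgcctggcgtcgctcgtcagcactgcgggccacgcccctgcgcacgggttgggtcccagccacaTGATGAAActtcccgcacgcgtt

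The members were at their highest in cells lacking both RelB and Nfkb2. DKO had the highest mean for 32 of the 40 genes, against 25.1% of all genes tested, and the lowest mean for none. The median log2 difference of the 40 members between DKO and WT was 0.25, with 38 positive, where the median over all 13797 genes was 0.00 and 50.7% were positive. In 26 members both DKO libraries lay above both WT libraries, as they did for 16.6% of all genes, and in 0 members below (17.6%). The differences were small, from -0.10 (Slc7a11, the cystine importer) to 0.66 (Gpt2, mitochondrial alanine aminotransferase). No member passed an adjusted p of 0.05 in limma, with or without the replicate block, where 0.0145% of all genes were called without it and 0.0652% with it. Without the block 5 of the 40 were under 0.05 before adjustment, as were 715 of all 13797 genes. Bulk RNA cannot tell fewer cells of a type from less RNA per cell.

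Much of that pattern rests on 1 library. DKO replicate 2 held the single highest value for 29 of the 40 members, against 20.6% of all genes, and DKO replicate 1 held it for 0. DKO replicate 2 also had more Relb (7.08) and Nfkb2 (9.85) RNA than any other library lacking those genes, and the part of this was not tested. Within the replicate 1 libraries the median difference between DKO and WT was 0.12, and within those of replicate 2 it was 0.38. In both number-matched pairs 31 members were higher in DKO than in WT, against 29.8% of all genes. The members were read from the same libraries and are not replicates of each other, so this count does not offset that dependence. Without DKO replicate 2 the median was 0.10, and without WT replicate 1 it was 0.24. The un-logged levels of the 7 Treg and T cell markers with values summed to 197000 to 200000 in DKO against 166000 to 186000 in the other genotypes. One by one, 3 of the 7 were higher in DKO than in WT and 4 lower (median log2 difference -0.03), and Il2ra was 16.33 and 16.52 in DKO against 15.93 and 15.94 in WT. The B cell markers summed to 214 to 224 in DKO and 151 to 211 elsewhere, with Cd79b at 7.63 and 7.72 in DKO against 7.09 and 7.35 in WT. Myeloid and dendritic markers summed to 174 to 226 in DKO and 161 to 241 elsewhere, and CD8 T and NK markers to 286 to 306 and 258 to 311. The 4 and 3 tested markers of these lists all had higher means in DKO than in WT, with median log2 differences of 0.09 and 0.08. The part of any of these markers in the members' differences was not tested.

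**Figure D1:**
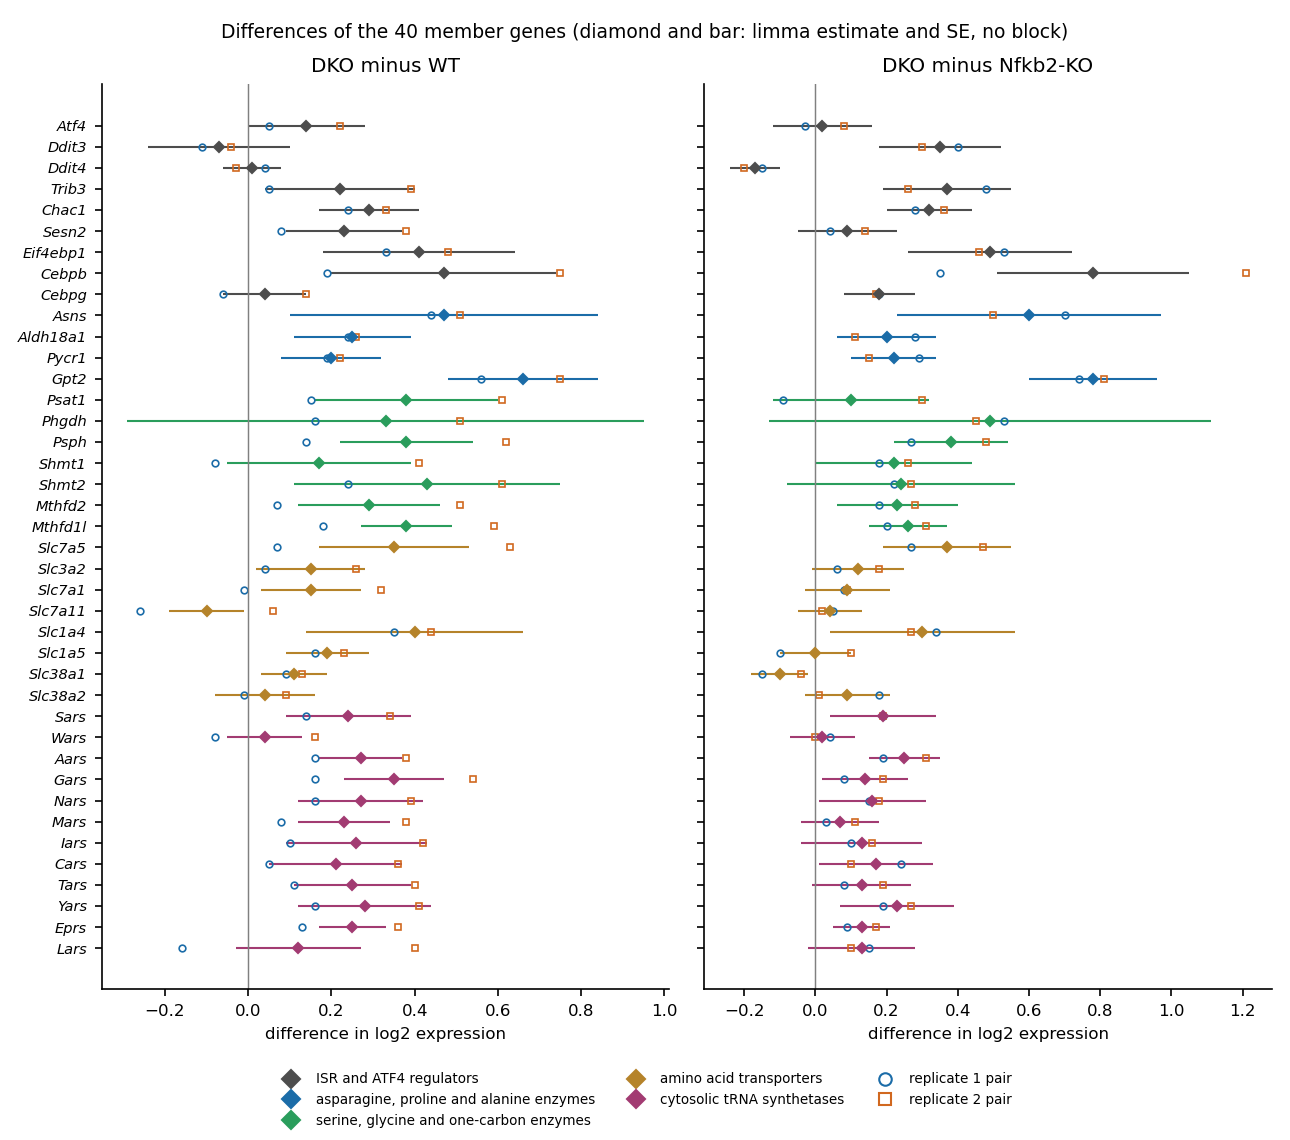
Difference in log2 expression (x axis) of each of the 40 members (rows, coloured by role) for DKO minus WT and DKO minus Nfkb2-KO, with diamonds and bars for the limma estimate and its SE without the block, circles for the replicate 1 pair and squares for the replicate 2 pair. Of the 40 diamonds, 38 lie above 0 in the first panel and 37 in the second.

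Most member calls in limma lay between DKO and Nfkb2-KO, that is, with and without RelB in cells that already lack Nfkb2. The member median there was smaller than the 0.25 for DKO against WT, and fewer members had groups without overlap. Gpt2, Asns, Eif4ebp1, Phgdh and Chac1 were higher in DKO and passed the test only with the replicate block. That is 5 of 40 members called higher, against 2.07% of all genes, and no member was called lower. Without the block none of the 40 passed, where 0.768% of all genes did. Before adjustment 5 members were under 0.05, beside 1361 of all 13797 genes. The median log2 difference over the members was 0.19, with 37 positive, and over all genes it was 0.00 with 50.3% positive. The number-matched pairs gave medians of 0.18 and 0.19, and 34 members were higher in both pairs, against 28.6% of all genes. In 15 members the groups did not overlap with DKO above (17.4% of all genes), and in 2, Ddit4 and Slc38a1, with DKO below (17.8%).

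Gpt2, on chromosome 8 at 85492576 to 85527560 (mm10, plus strand), makes alanine and 2-oxoglutarate from pyruvate and glutamate in mitochondria. Its log2 expression was 7.10 and 7.26 in WT, 7.25 and 7.64 in RelB-KO, 6.92 and 7.20 in Nfkb2-KO, and 7.66 and 8.01 in DKO, replicate 1 first. Both DKO libraries lay above all 6 others. The log2 difference between DKO and Nfkb2-KO was 0.78 ± 0.18 (SE, n = 2 against 2), a fold of 1.71, with a limma adjusted p of 0.162 without the block and 0.00246 with it. The pairs gave 0.74 and 0.81. Against WT the log2 difference was 0.66 ± 0.18 (SE), with limma adjusted p-values of 0.861 and, with the block, 0.0774. A processed pseudogene, Gm5049, matches 1328 bases of Gpt2 at 92.2% identity, and reads that the authors' counting could have split between them cannot be separated here.

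Asns, asparagine synthetase, lies on chromosome 6 at 7675169 to 7693254 (mm10, minus strand) with no near-identical copy and no overlapping gene in the annotation. Log2 expression was 9.55 and 10.09 in WT, 9.66 and 10.31 in RelB-KO, 9.29 and 10.09 in Nfkb2-KO, and 9.99 and 10.60 in DKO. In every genotype replicate 2 was higher, by 0.54 to 0.80, and the genotypes overlap unless libraries of the same number are compared. Within numbers DKO was the highest, by 0.70 and 0.50 over Nfkb2-KO. The log2 difference was 0.60 ± 0.37 (SE, n = 2 against 2), a fold of 1.52, with limma adjusted p-values of 0.727 without the block and 0.00508 with it.

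Eif4ebp1 encodes 4E-BP1, which holds back cap-dependent translation until mTORC1 phosphorylates it, and it is an ATF4 target. Its log2 expression was 8.56 and 8.84 in WT, 8.72 and 9.08 in RelB-KO, 8.36 and 8.87 in Nfkb2-KO, and 8.89 and 9.33 in DKO. Both DKO libraries lay above both Nfkb2-KO libraries, although DKO replicate 1 (8.89) was close to Nfkb2-KO replicate 2 (8.87). The log2 difference was 0.49 ± 0.23 (SE), with limma adjusted p-values of 0.591 and, with the block, 0.0123. A processed pseudogene, Gm14143, matches 357 bases of Eif4ebp1 at 93.3% identity, so reads could be shared there.

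Phgdh, the first enzyme of serine synthesis, differed more between replicate numbers than any other member in each genotype. Log2 expression was 10.77 and 11.61 in WT, 10.72 and 11.82 in RelB-KO, 10.40 and 11.66 in Nfkb2-KO, and 10.93 and 12.11 in DKO. Replicate 2 exceeded replicate 1 by 0.83 to 1.26, and all genotypes overlap. DKO was higher than Nfkb2-KO by 0.53 and 0.45 within numbers, with a log2 difference of 0.49 ± 0.62 (SE) and limma adjusted p-values of 0.97 without the block and 0.0292 with it. With only 1 library of a pair left out and no block, the difference was -0.14 (without Nfkb2-KO replicate 1) and -0.10 (without DKO replicate 2). Phgdh also has 17 pseudogene copies of at least 90% identity over 300 bases or more, so its level is uncertain where reads were shared among them.

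Chac1 degrades glutathione in the cytosol and is a known target of the stress response. Its log2 expression was low, 5.55 and 5.68 in WT, 5.50 and 5.74 in RelB-KO, 5.52 and 5.65 in Nfkb2-KO, and 5.79 and 6.01 in DKO. Both DKO libraries lay above the other 6. The log2 difference between DKO and Nfkb2-KO was 0.32 ± 0.12 (SE), with limma adjusted p-values of 0.445 and, with the block, 0.0442.

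These calls depend on single libraries. With the block, Gpt2 alone was called without Nfkb2-KO replicate 1, Gpt2 and Cebpb without DKO replicate 1, and 0 members without DKO replicate 2. Without either WT library 7 were called, the extra ones being Psph and Slc7a5. Chac1 was lost without Nfkb2-KO replicate 2 and without either RelB-KO library, where Cebpb was called in its place in the latter fits.

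**Figure D2:**
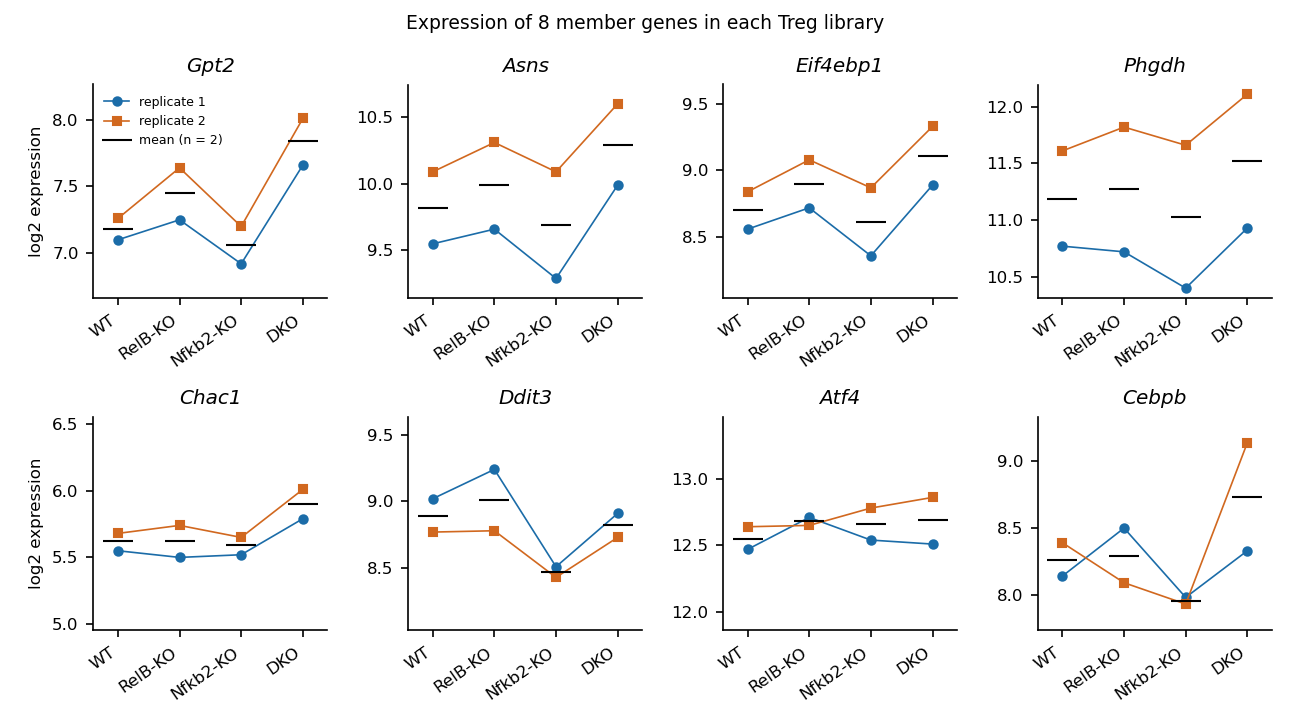
Log2 expression (y axis) in each of the 8 libraries by genotype (x axis) for Gpt2, Asns, Eif4ebp1, Phgdh, Chac1, Ddit3, Atf4 and Cebpb, with circles for replicate 1, squares for replicate 2, lines joining libraries of the same number and bars for means of 2. Gpt2 in DKO, at 7.66 and 8.01, lies above all other libraries, and Phgdh is parted by replicate number, by 0.83 to 1.26 in each genotype.

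Among the regulators, Atf4 itself had small differences. Its log2 expression was 12.47 and 12.64 in WT, 12.71 and 12.65 in RelB-KO, 12.54 and 12.78 in Nfkb2-KO, and 12.51 and 12.86 in DKO, and all genotypes but WT and RelB-KO overlap. The log2 difference between DKO and WT was 0.14 ± 0.14 (SE, limma adjusted p = 0.928), and without DKO replicate 2 it was -0.04.

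Ddit3, which encodes the stress factor CHOP, was at its lowest in Nfkb2-KO. Log2 expression was 9.02 and 8.77 in WT, 9.24 and 8.78 in RelB-KO, 8.51 and 8.43 in Nfkb2-KO, and 8.91 and 8.73 in DKO. Both Nfkb2-KO libraries lay below all 6 others. The log2 difference between Nfkb2-KO and RelB-KO was -0.54 ± 0.17 (SE), with limma adjusted p-values of 0.283 without the block and 0.0199 with it. Against WT it was -0.42 ± 0.17 (SE), and the limma adjusted p was 0.459 and, with the block, 0.0626. Ddit3 and the synthetase gene Mars share 68 exonic bases on opposite strands, and whether counting used the strand is not given in the sources used here. The annotation also holds another protein-coding entry named Ddit3 on the same strand, which shares 105 exonic bases with it.

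Cebpb, a C/EBP protein that can pair with ATF4, had a wider spread between libraries in DKO than in the other genotypes. Its log2 expression was 8.14 and 8.39 in WT, 8.50 and 8.09 in RelB-KO, 7.98 and 7.93 in Nfkb2-KO, and 8.33 and 9.14 in DKO. The log2 difference between DKO and Nfkb2-KO was 0.78 ± 0.27 (SE), as large as that of Gpt2, but the pairs gave 0.35 and 1.21 and the limma adjusted p was 0.38 and, with the block, 0.106. Cebpb overlaps 312 exonic bases of Tmem189 on the opposite strand.

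Ddit4, whose product REDD1 restrains mTORC1, was the regulator with the opposite order, highest in Nfkb2-KO. Log2 expression was 10.16 and 10.22 in WT, 10.03 and 10.12 in RelB-KO, 10.35 and 10.39 in Nfkb2-KO, and 10.20 and 10.19 in DKO. The Nfkb2-KO libraries lay above all others, by 0.29 ± 0.07 (SE) over RelB-KO on the log2 scale, with limma adjusted p-values of 0.172 and, with the block, 0.0511. Between DKO and Nfkb2-KO, Trib3 (a pseudokinase that damps ATF4) differed by 0.37, Cebpg (another C/EBP partner) by 0.18 and Sesn2 (a leucine sensor) by 0.09, and none of these passed. As a group the 9 regulators had a median log2 difference of 0.22 for DKO against WT, 0.32 for DKO against Nfkb2-KO and -0.25 for Nfkb2-KO against RelB-KO.

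The 7 serine, glycine and one-carbon enzymes were higher in DKO than in each other genotype, 7 of 7 in every case, with median log2 differences of 0.38 against WT, 0.27 against RelB-KO and 0.24 against Nfkb2-KO. Psat1, the aminotransferase that follows Phgdh, was 11.74 and 11.88 in WT, 11.59 and 12.02 in RelB-KO, 11.99 and 12.19 in Nfkb2-KO, and 11.89 and 12.48 in DKO. DKO exceeded WT by 0.38 ± 0.22 (SE, limma adjusted p = 0.861), and Nfkb2-KO exceeded WT by 0.28 ± 0.22 (SE, limma adjusted p = 0.754). Psph, which completes serine synthesis, was 9.30 and 9.15 in WT, 9.23 and 9.59 in RelB-KO, 9.16 and 9.28 in Nfkb2-KO, and 9.43 and 9.76 in DKO. It exceeded WT in DKO by 0.38 ± 0.16 (SE, limma adjusted p = 0.861), with no overlap.

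Mitochondrial folate enzymes were also higher in DKO than in WT, and none passed. Shmt2, which splits serine into glycine and a one-carbon unit, was 0.43 ± 0.32 (SE) higher in DKO than in WT, Mthfd1l, which releases formate, 0.38 ± 0.11 (SE), and Mthfd2, the dehydrogenase between them, 0.29 ± 0.17 (SE), each with a limma adjusted p of at least 0.861. The cytosolic counterpart Shmt1 had the smallest difference of the group, 0.17 ± 0.22 (SE). Of the remaining amino acid enzymes, Aldh18a1 and Pycr1, both of proline synthesis, were 0.25 and 0.20 higher in DKO than in WT, and neither passed. Psat1 has 1 pseudogene copy, and Psph shares 452 exonic bases with Cct6a and Shmt1 184 with Smcr8 on the opposite strand, so reads could be shared there.

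**Figure D3:**
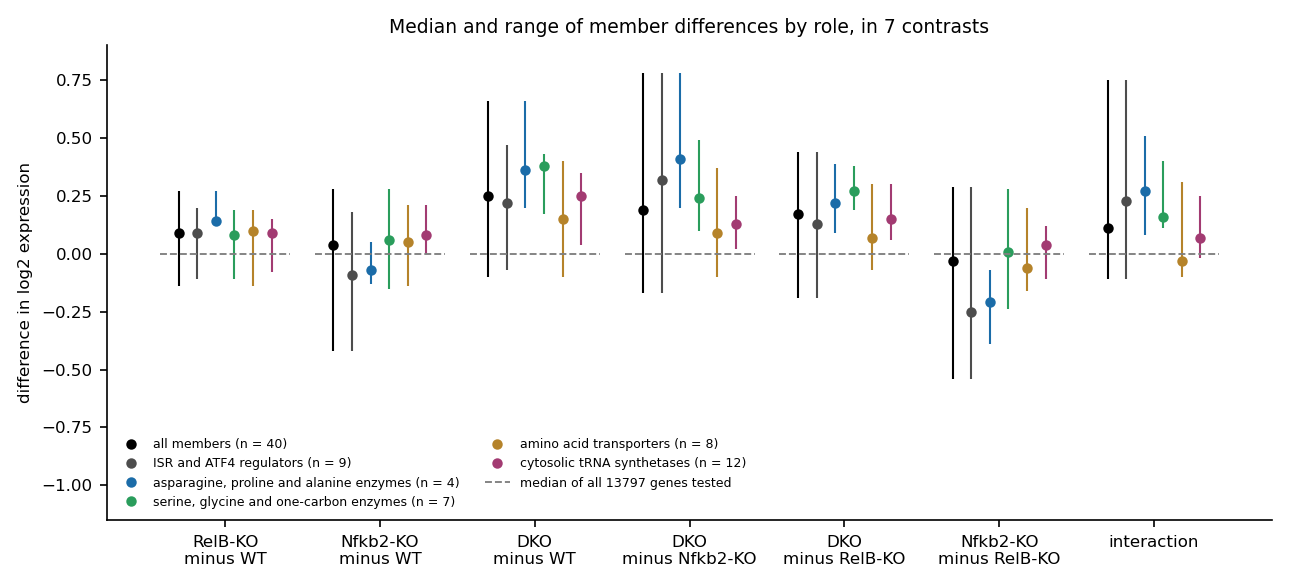
Median (points) and range (bars) of the difference in log2 expression (y axis) over all members and over the members of each role, for the 7 comparisons on the x axis, with a dashed line for the median of all 13797 genes. For DKO against WT the medians run from 0.15 (transporters) to 0.38 (serine, glycine and one-carbon enzymes), and the dashed line is at 0.00.

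Amino acid transporters differed least, with a median log2 difference of 0.15 for DKO against WT and 0.09 for DKO against Nfkb2-KO. Slc7a5 and Slc3a2 form the large neutral amino acid transporter of activated T cells (LAT1 and CD98). Slc7a5 was 12.33 and 12.20 in WT, 12.15 and 12.49 in RelB-KO, 12.13 and 12.37 in Nfkb2-KO, and 12.40 and 12.83 in DKO, a log2 difference between DKO and WT of 0.35 ± 0.18 (SE, limma adjusted p = 0.861). Slc3a2 was 12.23 and 12.04 in WT, 12.50 and 12.15 in RelB-KO, 12.21 and 12.12 in Nfkb2-KO, and 12.27 and 12.30 in DKO, a log2 difference of 0.15 ± 0.13 (SE, limma adjusted p = 0.899). So the DKO libraries lay above WT for both chains.

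Among the others, Slc1a4, a transporter of neutral amino acids such as alanine and serine, was 0.40 ± 0.26 (SE) higher in DKO than in WT. Slc1a5, a glutamine carrier, was 0.19 ± 0.10 (SE) higher, and Slc7a1, the cationic amino acid transporter, 0.15 ± 0.12 (SE). Slc38a1 and Slc38a2, which also import glutamine, differed by 0.11 and 0.04. Slc7a11, at 3.44 to 3.76, was the member listed at the lowest values and was the only transporter lower in DKO than in WT. Part of its longest coding transcript matches 585 bases of Tuba1b at 92.5% identity and parts of 10 pseudogenes, so reads could be shared there. None of the 8 passed in any comparison in the fits of all 8 libraries.

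The 12 synthetases, each of which loads an amino acid onto its tRNA, were all higher in DKO than in WT, with a median log2 difference of 0.25 and a range of 0.04 (Wars, tryptophan) to 0.35 (Gars, glycine). In 10 of the 12 both DKO libraries lay above both WT libraries, as they did for 16.6% of all genes. Sars, for serine, was 11.87 and 11.97 in WT, 11.93 and 12.14 in RelB-KO, 11.81 and 12.12 in Nfkb2-KO, and 12.01 and 12.32 in DKO. The log2 difference was 0.24 ± 0.15 (SE, n = 2 against 2, limma adjusted p = 0.861). Aars (alanine, 0.27), Gars (0.35) and Eprs (glutamate and proline, 0.25) were under 0.05 before adjustment and not after it. Of all 13797 genes 715 were under 0.05 before adjustment in this comparison. Against Nfkb2-KO the 12 were again all positive, with a median of 0.13. Aars shares 1326 exonic bases with Exosc6 and Iars has 1 pseudogene copy, and reads there could be shared. Between replicates the 12 were higher in replicate 2 in Nfkb2-KO and DKO (12 of 12 in each), in 10 of 12 in RelB-KO and in 6 of 12 in WT.

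Synthetases outside the member list had another order. Of 11 other cytosolic synthetases and scaffold proteins of the multisynthetase complex, 11 of 11 had higher means in Nfkb2-KO than WT, with a median log2 difference of 0.24, where the 12 members had 0.08. For DKO against Nfkb2-KO the 11 had a median of -0.04 with 3 positive, beside 0.13 with 12 positive for the members. None of the 11 passed in any comparison, and the difference between these lists was not tested. Farsb (phenylalanine) and Eef1e1 (a scaffold protein) were the largest, 0.30 each for Nfkb2-KO against WT. The 17 mitochondrial synthetases had a median of 0.07 for DKO against WT with none called, and their largest differences were Lars2 (leucine) at -0.50 and Fars2 (phenylalanine) at 0.35.

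The single knockouts had smaller median differences from WT, and whether they differ from DKO in this was tested gene by gene in the comparisons with DKO. Between RelB-KO and WT the median was 0.09 with 32 of 40 positive (51.8% of all genes), and no member was called with or without the block (0.00725% of all genes were without it and 0.0145% with it). Before adjustment 0 members were under 0.05, beside 171 of all 13797 genes. In 5 members RelB-KO did not overlap WT from above (9.63% of all genes) and in 1 from below (11% of all genes). The largest were Gpt2 (0.27 ± 0.18, SE), Eif4ebp1 (0.20 ± 0.23) and Psph (0.19 ± 0.16), and the median without WT replicate 1 was 0.06.

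Between Nfkb2-KO and WT the median was 0.04 with 24 of 40 positive (50.4% of all genes), and no member was called with or without the block (0.341% of all genes were without it and 2.91% with it). Before adjustment 3 members were under 0.05, beside 1472 of all 13797 genes. The groups did not overlap in 8 members with Nfkb2-KO above (21.6% of all genes) and in 3 with it below (20.9%). Ddit3 (-0.42), Cebpb (-0.31 ± 0.27, SE) and Psat1 (0.28) had the largest differences, and of the regulators 6 of 9 were negative.

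Compared with each other, Nfkb2-KO and RelB-KO had a member median of -0.03 with 18 of 40 positive (49.3% of all genes). The groups did not overlap in 5 members with Nfkb2-KO above (20.9% of all genes) and in 7 with it below (21.1%). Without the block no member was called (0.797% of all genes were). Before adjustment 4 members were under 0.05 in that fit, beside 1647 of all 13797 genes. With the block Ddit3 and Gpt2 were called lower in Nfkb2-KO, 2 of 40 members against 1.67% of all genes. Gpt2 had a log2 difference of -0.39 ± 0.18 (SE) with limma adjusted p-values of 0.481 and, with the block, 0.0497. The Gpt2 call was lost without any 1 library of RelB-KO, Nfkb2-KO or DKO, and the Ddit3 call was lost without RelB-KO replicate 1 or Nfkb2-KO replicate 1. All 4 enzymes of asparagine, proline and alanine synthesis were lower in Nfkb2-KO, with a median of -0.21.

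DKO differed from RelB-KO by a median of 0.17, with 36 of 40 positive (49.7% of all genes). No member was called with or without the block (0.00725% of all genes were called without it and 0.0145% with it). Before adjustment 1 member, Mthfd1l, was under 0.05, beside 398 of all 13797 genes. In 13 members both DKO libraries lay above both RelB-KO libraries, as they did for 13.2% of all genes, in 0 the reverse (14.3%), and in 30 both number-matched differences were positive (28.2%). Cebpb had the largest difference, 0.44 ± 0.27 (SE), with pairs of -0.17 and 1.05, followed by Gpt2 at 0.39 ± 0.18 (SE) and Psat1 at 0.38 ± 0.22 (SE).

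Whether loss of RelB acted differently with and without Nfkb2 was tested as the difference between DKO minus Nfkb2-KO and RelB-KO minus WT. The median over the members was 0.11 with 32 of 40 positive, and over all genes it was -0.00 with 48.6% positive. No member passed, with or without the block (0.00725% of all genes did without it and 0.471% with it). Before adjustment 0 members were under 0.05, beside 614 of all 13797 genes. Gpt2 had the lowest limma adjusted p with the block, 0.185, at a log2 difference of 0.51 ± 0.26 (SE), and Asns had 0.44 ± 0.52 (SE). The largest value was that of Cebpb, 0.75 ± 0.38 (SE), with -0.01 within replicate 1 and 1.51 within replicate 2.

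The deposited comparisons with WT made by the authors call some of these genes. At an adjusted p of 0.05 the authors' deposited table has 4 members higher in DKO than in WT, where 0.593% of all genes with an adjusted p were. Gpt2 had a log2 fold change of 0.88 (adjusted p = 0.000151) and Asns of 0.53 (adjusted p = 0.00438) in the authors' deposited table. Shmt2 was given there, in the authors' deposited table, as 0.44 (adjusted p = 0.0133) and Eif4ebp1 as 0.49 (adjusted p = 0.0451). For Nfkb2-KO against WT the authors' deposited table calls 1 member, Ddit3, lower at -0.49 (adjusted p = 0.0213), where 2.73% of all genes were called lower. For RelB-KO against WT the authors' deposited table calls 0 members, where 0.119% of all genes were called. The fits above gave the same signs for these 5 genes and called none of them against WT.

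Genes of the same pathways outside the member list were read from lists set by function. In mTORC1 and amino acid sensing 1 of 14 tested genes passed: Rragd, which encodes RagD, a GTPase that brings mTORC1 to the lysosome when amino acids are present. Its log2 expression was 11.26 and 11.37 in WT, 11.27 and 11.16 in RelB-KO, 12.02 and 12.19 in Nfkb2-KO, and 11.33 and 11.42 in DKO. Both Nfkb2-KO libraries lay above all 6 others. Among those, WT overlapped RelB-KO and DKO, and both DKO libraries lay above both RelB-KO libraries. Rragd rose in Nfkb2-KO by 0.79 ± 0.09 (SE) over WT (limma adjusted p = 0.0448) and by 0.89 ± 0.09 (SE) over RelB-KO (limma adjusted p = 0.0173), and the log2 difference between DKO and Nfkb2-KO was -0.73 ± 0.09 (SE, limma adjusted p = 0.0298). With the block the limma adjusted p-values were 0.00215, 0.000782 and 0.00199. Of all genes 0.341%, 0.797% and 0.768% were called in the same comparisons without the block. Without the block, the calls against WT and DKO were lost without any 1 of the 8 libraries, and the call against RelB-KO was lost without any 1 library of RelB-KO or Nfkb2-KO. The differences in those fits were 0.70 to 0.88 against WT, -0.65 to -0.82 for DKO against Nfkb2-KO and 0.80 to 0.98 against RelB-KO, and with the block all 3 calls held without each library. Fitting only the compared groups also ended all 3 calls, and the call against WT was lost with no variance trend and with no filter on low values.

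Among 10 other amino acid transporters tested, 3 passed with the block only. All 3 were called higher in DKO than in Nfkb2-KO, where 2.07% of all genes were. For Nfkb2-KO against RelB-KO 2 were called lower, where 1.67% of all genes were. For Nfkb2-KO against WT and for the interaction 1 was called, where 2.91% and 0.471% of all genes were called either way. Slc16a10, a carrier of aromatic amino acids, was 6.53 and 6.53 in WT, 6.40 and 6.65 in RelB-KO, 6.00 and 6.09 in Nfkb2-KO, and 6.76 and 7.11 in DKO. Nfkb2-KO was the lowest and DKO the highest, a log2 difference of 0.89 ± 0.14 (SE) with limma adjusted p-values of 0.0556 without the block and 0.00208 with it. With the block it was also lower in Nfkb2-KO than in WT (-0.49, limma adjusted p = 0.041) and RelB-KO (-0.48, limma adjusted p = 0.0338), and the interaction was 0.90 (limma adjusted p = 0.0399). With the block and 1 library left out, the call between DKO and Nfkb2-KO held without each of the 8, and the interaction was called only without WT replicate 2. The call against WT was lost without WT replicate 1 or any library of Nfkb2-KO or DKO, and that against RelB-KO without any library of RelB-KO or Nfkb2-KO. Slc43a2, a leucine carrier, was 0.46 higher in DKO than in Nfkb2-KO (limma adjusted p with the block 0.0203) and lower in Nfkb2-KO than in RelB-KO (-0.49, limma adjusted p with the block 0.0164), and Slc6a9, a glycine carrier, 0.42 (limma adjusted p with the block 0.0266). The calls of both between DKO and Nfkb2-KO were lost without any 1 library of either genotype, and that of Slc43a2 against RelB-KO without RelB-KO replicate 1 or either Nfkb2-KO library.

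Of 13 tested kinases, phosphatase subunits and factors of the stress response, 2 passed with the block. Of all 13797 genes, 285 were called higher and 408 lower in DKO than in Nfkb2-KO with the block. For Nfkb2-KO against RelB-KO 384 were called higher with it. Atf3, a stress-induced factor downstream of ATF4, was 9.81 and 9.49 in WT, 9.68 and 9.40 in RelB-KO, 10.11 and 10.21 in Nfkb2-KO, and 9.30 and 9.34 in DKO. Its order was the reverse of that of Gpt2, with Nfkb2-KO highest and DKO lowest. The log2 difference between DKO and Nfkb2-KO was -0.84 ± 0.14 (SE, limma adjusted p-values 0.0617 and, with the block, 0.00483), and between Nfkb2-KO and RelB-KO it was 0.62 ± 0.14 (SE, limma adjusted p-values 0.147 and, with the block, 0.0195). Cth, which makes cysteine from cystathionine, was 0.32 higher in DKO than in Nfkb2-KO (limma adjusted p with the block 0.0497), a call lost without any 1 library of either genotype. The Atf3 calls were lost without DKO replicate 1 for DKO against Nfkb2-KO, and without RelB-KO replicate 2 or Nfkb2-KO replicate 2 for Nfkb2-KO against RelB-KO. Of 15 other folate, glutamine and proline enzymes none passed, and Got1 (aspartate aminotransferase) differed by 0.39 between DKO and WT.

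**Figure D4:**
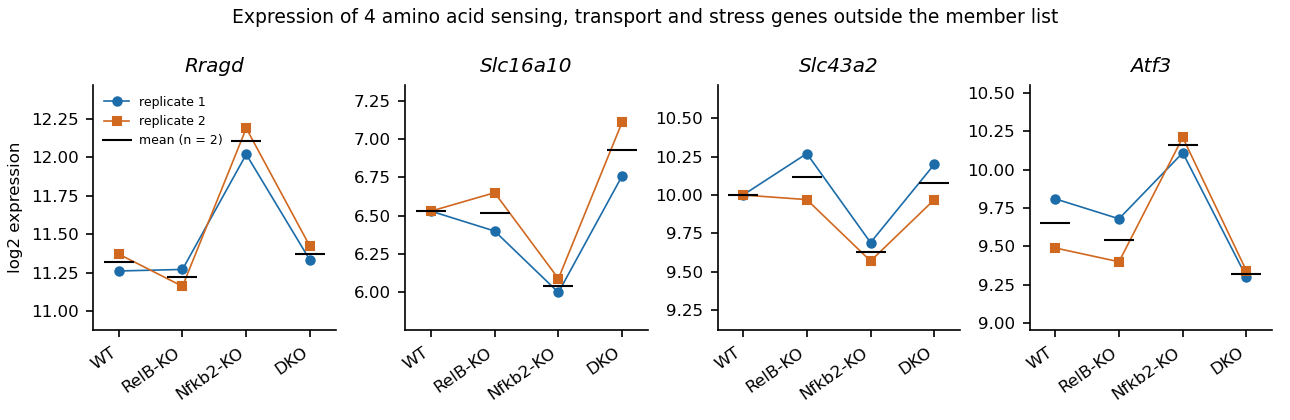
Log2 expression (y axis) in each of the 8 libraries by genotype (x axis) for Rragd, Slc16a10, Slc43a2 and Atf3, with circles for replicate 1, squares for replicate 2, lines joining libraries of the same number and bars for means of 2. Nfkb2-KO lies highest for Rragd (12.02 and 12.19) and Atf3 (10.11 and 10.21) and lowest for Slc16a10 (6.00 and 6.09) and Slc43a2.

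The member median was also higher in replicate 2 than in replicate 1 in the 3 knockout genotypes. In WT the members moved both ways, from -0.43 to 0.83. The median of replicate 2 minus replicate 1 was 0.00 in WT, 0.14 in RelB-KO, 0.20 in Nfkb2-KO and 0.27 in DKO, where over all genes it was -0.01 in each. In all 4 genotypes 15 members, Asns and Phgdh among them, were higher in replicate 2, and 4 members were lower. In DKO 34 of 40 were higher in replicate 2, and in WT 20 of 40.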

How the data were processed

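RNA-seq expression was compared across 8 Treg libraries, 4 genotypes with 2 libraries each. The deposited log2 values are described per the file headers as log2 RPKM with batch correction, but their un-logged sums of 18200000 to 19700000 per library are not those of RPKM, and the correction is not described in the sources used here. STAR, DESeq2 1.10.1 and mm10 are named per the submitters' processing notes, with no roles given. Annotation and the strand used in counting are not given in the sources used here. The deposited p-values and adjusted p-values of the authors' comparisons with WT were read as given, and the deposited z-scores were not used.

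Of 22432 genes, 6247 listed at 0 in all libraries and 1 with a blank cell were left out, and 25 symbols turned into dates stayed as they are. The 13797 genes whose un-logged values averaged 1 or more entered the tests. All libraries entered 1 model in limma 3.58.1 (R 4.3.3), with a variance trend, 7 contrasts and Benjamini-Hochberg adjustment over all genes tested, at a threshold of 0.05. The SE is that of the fit without a block. The same fit was made with the replicate number as a block. Deviations from the genotype means correlated between libraries of the same number at 0.81 to 0.89 in all 6 pairs of genotypes, so the numbers were taken to pair the libraries. This comes from the data, since the labels give only the number.

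On simulated data for DKO against WT with 13797 genes, changes of 0.5, 1, 2 and 4 (log2) were recovered in 10, 39, 46 and 49 of 50 genes without the block (1 false call) and in 28, 47, 50 and 50 with it (4 false calls). The simulated replicate shift and spread were taken from the fit with the block, so better recovery with it was built in. Changes were placed only in genes above a set level. The smallest, 0.5, is above the member median of 0.25 for DKO against WT, so recovery at that size was not measured.

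Members and lists were chosen with earlier results of these data known. Genes given in full were those called in either fit, the 3 members with the largest difference in each contrast, and Atf4, Asns, Slc7a5, Slc3a2 and Sars. From each other list they were the called genes, or otherwise up to 2 with the largest difference from WT, of which 1 is not reported here. Gene positions, overlaps and copies (blastn 2.17.0, at least 90% identity over 300 bases) come from GENCODE M21.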

Additional observations from a re-analysis of the deposited data

How the results depend on the processing

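Alternatives were the replicate block, no variance trend, no filter on low values, a stricter filter, quantile normalization, log2(value + 1), only the compared groups (which gives no interaction) and leaving out each library. Leaving out each library with the block was chosen after seeing the data, because WT replicate 1 stands apart and the replicates differ. With the replicate block 5 members were called for DKO against Nfkb2-KO and 2 for Nfkb2-KO against RelB-KO, where the fit without it called 0, and it changed no other count of members called. By the authors' adjusted p 4 members were called for DKO against WT and 1 for Nfkb2-KO against WT. Leaving out 1 library with the block, the calls ranged from 0 to 7 for DKO against Nfkb2-KO, 0 to 2 for Nfkb2-KO against RelB-KO, 0 to 1 for DKO against WT (Gpt2) and 0 to 1 for Nfkb2-KO against WT (Ddit3 or Slc7a11), and without the block all were 0. The member medians ranged, leaving out 1 library in either fit, from 0.10 to 0.39 for DKO against WT, 0.06 to 0.31 for DKO against Nfkb2-KO, 0.03 to 0.31 for DKO against RelB-KO, -0.14 to 0.10 for Nfkb2-KO against RelB-KO, -0.08 to 0.17 for Nfkb2-KO against WT, -0.02 to 0.19 for RelB-KO against WT and -0.02 to 0.23 for the interaction. With the block, the DKO against Nfkb2-KO median was 0.13 without Nfkb2-KO replicate 1 or DKO replicate 2 and 0.25 without Nfkb2-KO replicate 2 or DKO replicate 1. In the same fits the median was 0.24 and 0.11 for DKO against RelB-KO (without DKO replicate 1 and 2), 0.02 and -0.07 for Nfkb2-KO against RelB-KO (without Nfkb2-KO replicate 1 and 2) and 0.22 for the interaction (without WT replicate 2). For DKO against Nfkb2-KO the median was 0.19 with the stricter filter and 0.21 with quantile normalization. Signs were reversed for Atf4, DKO against WT (-0.04 without DKO replicate 2), Phgdh, DKO against Nfkb2-KO (-0.14 without Nfkb2-KO replicate 1 and -0.10 without DKO replicate 2, against up to 1.12 without Nfkb2-KO replicate 2) and, with the block, Cebpb, DKO against RelB-KO (-0.00 without DKO replicate 2), Cebpb, Nfkb2-KO against RelB-KO (0.03 without RelB-KO replicate 1) and Psph, RelB-KO against WT (-0.02 without WT replicate 2). Each of these fits has fewer libraries, and the cause was not tested otherwise. The depth of each library is unknown, which limits what can be said of members at low values such as Slc7a11, Chac1 and Pycr1.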
